A study of Homo sapiens with 9 samples.

Results

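Genes that encode proteins known to bind huntingtin (Htt), 9 in number, were examined for binding of the transcription factor YY1: HAP1, OPTN, HIP1, HIP1R, SH3GL3, PACSIN1, TRIP10, ZDHHC17 and ZDHHC13. Every peak assigned to one of these gene symbols was taken, at any distance from the transcription start site (TSS). All 9 genes had at least 1 peak. Together they held 15 of the 23002 peaks in the deposited table, and 10 of the 15 lay within 2 kb of a TSS, as did 15384 of all peaks. The genes were chosen for what their proteins do and not for their YY1 values, though earlier results of these data were known.

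The study used chromatin immunoprecipitation with an antibody to YY1, followed by sequencing, to examine YY1 in a cell model of Huntington's disease. It was done in SK-N-MC, a human tumour line labelled as neuroblastoma and known to carry the EWSR1-FLI1 fusion. Both groups were plasmid transfections of this line, and per the study's methods both plasmids encoded an EGFP fusion of Htt residues 1 to 550. HttQ23, the unexpanded control, carried 23 glutamines and HttQ89, the expanded form, carried 89. Each group had 3 YY1 libraries, described as biological replicates, and 3 input libraries were not used here. The expressed protein is a fragment produced from a plasmid beside the cells' own HTT, so neither group is a model of HTT at its natural level. YY1 binding cannot check the cell type against marker genes, and it does not report how much RNA or protein a gene makes.

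Huntingtin is a large scaffold protein that moves vesicles along microtubules and takes part in endocytosis and autophagy. Its partners fall into a transport group, which couples vesicles to motors and to the Golgi, a group that bends membrane and assembles clathrin coats, and 2 enzymes that attach palmitate to proteins. Several bind close to the polyglutamine tract, and for some of them its length alters how tightly they bind. YY1 is a zinc finger protein that can activate or repress transcription, and its binding motif is built around the letters ATGGC, often followed by G.

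Values below are normalised read counts, that is, reads in a peak of 401 bp scaled by the authors to sequencing depth. Within a library 1 read was worth between 0.876 and 1.06 units, so a value of 50 stands for about that many reads. Recovered reads in peaks ranged from 927910 to 2344649 per library. HttQ89 replicates 1 and 2 had the fewest reads in peaks and HttQ89 replicate 3 the most. HttQ89 replicate 1 was also at 0 in 22.5% of all peaks, against 2.99% to 8.82% in the other libraries. A value of 0 allows up to 3 reads, which is 3.09 units in HttQ89 replicate 1. Such limits cover counting error only.

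ZDHHC17 held by far the strongest of the 15 peaks. ZDHHC17, also called HIP14, is a palmitoyltransferase of the Golgi and of vesicles that attaches palmitate to Htt and to synaptic proteins. Its single peak (GRCh38, chr12:76763960-76764360, plus strand, ENSG00000186908) covered the TSS and the first 257 bp after it, along with 143 bp before it. The 143 bases of the peak that lie upstream of the start are shown because the strongest member peak sits on a CpG-rich promoter (80.4% G and C), with its 22 CG pairs in capitals, from chr12:76763960-76764102 on the plus strand.

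ZDHHC17 upstream: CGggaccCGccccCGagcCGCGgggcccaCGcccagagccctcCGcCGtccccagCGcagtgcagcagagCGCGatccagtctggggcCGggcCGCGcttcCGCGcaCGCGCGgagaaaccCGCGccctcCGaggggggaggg

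The 6-letter core ATGGCG was searched on both strands of each peak and lay under 3 of the 15 member peaks (20%), in ZDHHC17, OPTN and ZDHHC13. The share among all peaks was 32.7% (7522 of 23002). Among the 10 member peaks within 2 kb of a TSS, ZDHHC17 alone held it, against 27.0% of all such peaks (4155 of 15384). The site of ZDHHC17 is shown because it is the one member promoter with this core, which is printed in capitals.

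ZDHHC17 first exon, chr12:76764255-76764284, plus strand: tttaacaccaagATGGCGgacggcccggat

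The core of ZDHHC17 began 164 bases downstream of the TSS, within the coding part of the first exon and on the coding strand. The cores of OPTN and ZDHHC13 lay under their weak intronic peaks. In a window at the centre of each peak ATGGCG lay under 1 of the 15 member peaks (6.67%), beside 20.8% of all peaks. It lay there under 0 of the 10 near a TSS, beside 17.8% of all such peaks (2731 of 15384). The ZDHHC17 site falls outside this window. A match is a run of letters and not a measured contact.

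The shorter core ATGGC, which is contained in ATGGCG, lay under 5 of 15 member peaks (33.3%) and under 55.2% of all peaks. It added the SH3GL3 promoter and the internal HIP1 peak. Among peaks within 2 kb of a TSS it was found in 2 of 10 for the members and in 49.4% of all. The other 8 member peaks near a TSS thus held neither spelling. G and C made up 68.3% to 78.8% of the 9 strongest promoter peaks, one per gene, around the median of 71.3% for all peaks within 2 kb of a TSS. The weak peaks outside promoters were poorer in them, with 45.6% at the distal SH3GL3 peak, 50.9% at the ZDHHC13 intron and 56.1% at the OPTN intron.

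At the ZDHHC17 promoter the HttQ23 replicates 1, 2 and 3 gave 580.2, 252 and 526 and the HttQ89 replicates 1, 2 and 3 gave 329, 141 and 578. All values per library are given in this order. HttQ89 replicate 2 was the lowest library and the highest of HttQ89 equalled the highest of HttQ23 to within 1%, so the groups overlapped. The means were 453 ± 176 and 349.7 ± 219 (SD, n = 3 each), and the log2 fold change of HttQ89 over HttQ23 was −0.50 (SE 0.54, adjusted p = 0.818, limma). This promoter ranked above 97.5% of all promoter peaks. Of the 384 promoter peaks at or above its mean, 309 (80.5%) held the 6-letter core.

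ZDHHC13, also called HIP14L, is the closest relative of ZDHHC17 and shares its ankyrin repeats. Its promoter peak (chr11:19117073-19117473, plus strand, ENSG00000177054, TSS at 19117099) read 125, 65.8 and 117 in HttQ23, against 50.5, 63.3 and 112 in HttQ89. Both HttQ89 replicates 1 and 2 lay below the lowest HttQ23 library, while HttQ89 replicate 3 lay among the higher ones. The log2 fold change was −0.47 (SE 0.64, adjusted p = 0.825, limma). The intronic peak (chr11:19130741-19131141, intron 1) was near the limit of detection, at 17.0, 0 and 0 in HttQ23, against 4.12, 0 and 4.53 in HttQ89.

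**Figure D1:**
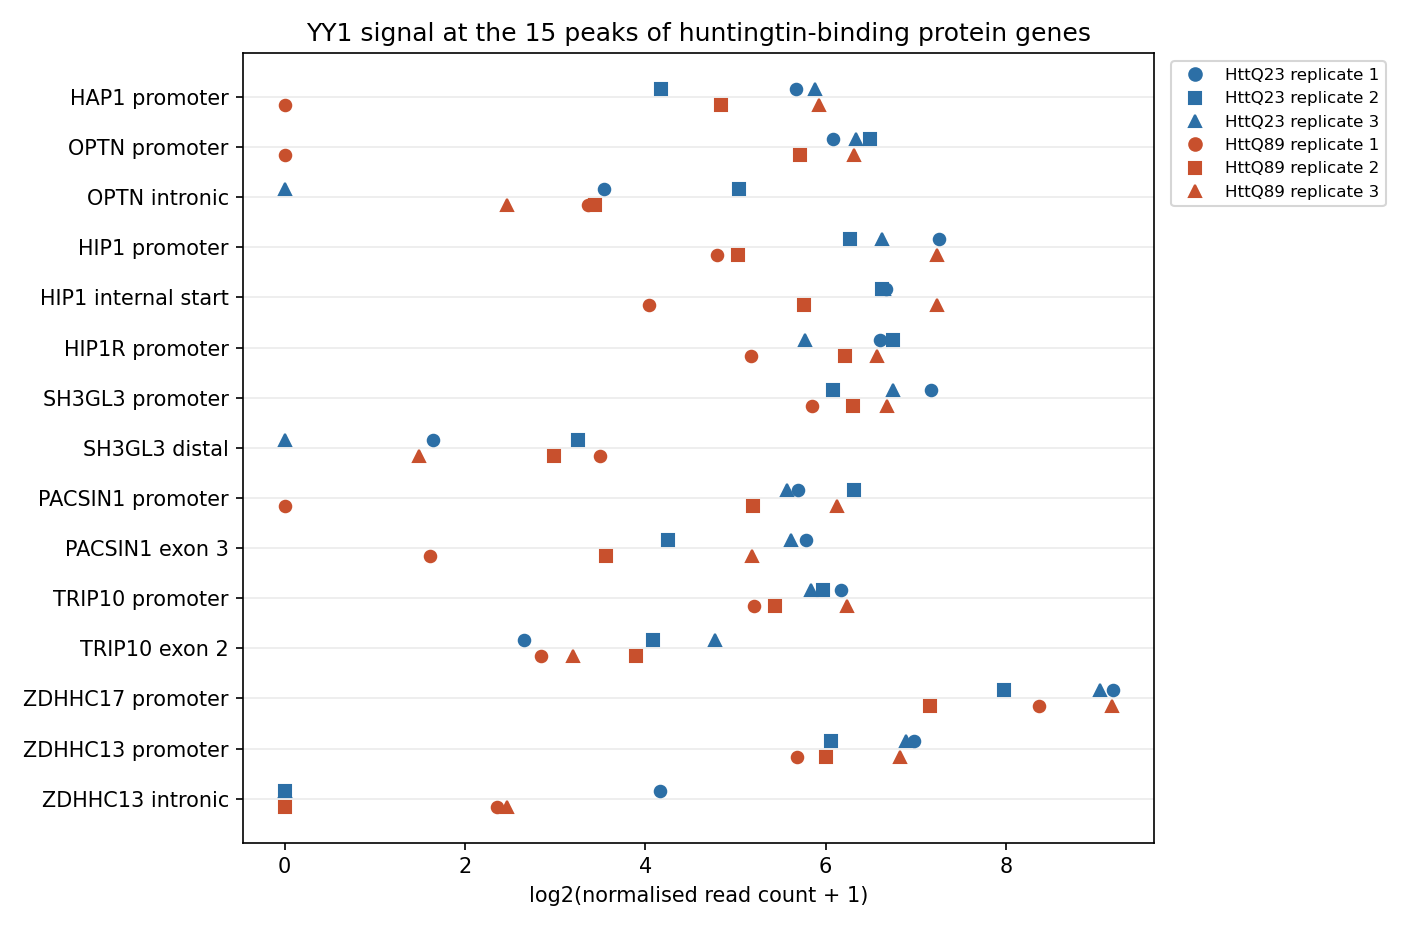
YY1 signal at the 15 peaks of the 9 genes, one row per peak. The x axis is log2(normalised read count + 1), each point is 1 library, blue for HttQ23 and red for HttQ89, with the marker shape giving the replicate; coinciding points cover each other (the 3 HttQ23 libraries at the HIP1 internal start, HttQ23 replicates 2 and 3 at 0 in the ZDHHC13 intron). ZDHHC17 lies furthest right, and HttQ89 replicate 1 sits at 0 for the HAP1, OPTN and PACSIN1 promoters.

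Of the transport partners, HAP1, or huntingtin-associated protein 1, is enriched in neurons and links Htt to dynactin and kinesin. Its only peak (chr17:41734392-41734792, minus strand, ENSG00000173805) covered the TSS at 41734644 and part of the first exon. The values were 49.9, 17.0 and 57.8 in HttQ23, against 0, 27.7 and 59.7 in HttQ89. The lowest and the highest library both belonged to HttQ89, with a mean of 29.1 ± 29.9 beside 41.5 ± 21.6 in HttQ23 (exact two-sided permutation p = 0.7, where 0.1 is the smallest that 3 against 3 can give).

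OPTN encodes optineurin, an autophagy receptor that joins Htt to Rab8 and myosin VI at the Golgi and is mutated in some families with glaucoma or amyotrophic lateral sclerosis. Its promoter peak (chr10:13099999-13100399, plus strand, ENSG00000123240, TSS at 13100159) read 66.8, 89.2 and 79.7 in HttQ23, against 0, 51.4 and 78.7 in HttQ89. Starts of CCDC3 and of ENSG00000289266 lie within 1 kb, so the peak cannot be assigned to OPTN alone. The intronic peak (chr10:13126250-13126650, intron 11) was weak, at 10.6, 31.9 and 0 in HttQ23, against 9.27, 9.88 and 4.53 in HttQ89. The HttQ23 libraries alone spanned the whole range of this intronic peak.

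The clathrin and membrane-bending partners made up the largest group. HIP1, an adaptor that binds clathrin, membrane lipids and actin, and whose hold on Htt weakens as the glutamine tract lengthens, had 2 peaks of like strength almost 100 kb apart. The upstream peak (chr7:75739296-75739696, minus strand, ENSG00000127946) reached up to 734 bp before the TSS at 75738962, without covering it, and lay outside every annotated gene body. It read 152, 76.5 and 98.1 in HttQ23, against 26.8, 31.6 and 149 in HttQ89.

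The second HIP1 peak (chr7:75639139-75639539, minus strand) was annotated as intron 1 of 30 and centred 99623 bp into the gene. A RefSeq start of HIP1 at 75639242 falls inside it. The 250 bases before that start are shown, from chr7:75639243-75639492 on the minus strand, because they carry 34 CG pairs (capitals) and 78.4% G and C in a peak that the table files as intronic.

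HIP1 internal start: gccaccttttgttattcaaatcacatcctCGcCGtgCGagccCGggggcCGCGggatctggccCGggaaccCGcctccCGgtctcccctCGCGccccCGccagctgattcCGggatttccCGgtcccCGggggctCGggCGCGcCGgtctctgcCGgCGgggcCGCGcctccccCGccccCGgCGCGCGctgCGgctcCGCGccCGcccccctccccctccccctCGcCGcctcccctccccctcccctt

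At this internal start the 3 HttQ23 libraries were nearly equal, at 100.8, 97.7 and 98.9, whereas HttQ89 gave 15.4, 53.4 and 149. The SD was 1.53 in HttQ23 and 69.0 in HttQ89, and the HttQ89 libraries fell on both sides of the HttQ23 values. The log2 fold change was −0.97 (SE 0.67, adjusted p = 0.818, limma), close to −1.03 (SE 0.66, adjusted p = 0.818) at the upstream peak. Without HttQ89 replicate 1 the internal and upstream values were −0.15 and −0.59. Without HttQ89 replicate 3 they were −1.74 and −1.81 (adjusted p = 0.0677 and 0.0548, limma), so each depended on which HttQ89 library was left out. The difference between the 2 peaks within a library averaged 0.04 on the log2 scale (SD 0.56, n = 6) and ranged from −0.74 to 0.76.

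HIP1R, the relative of HIP1 that also joins clathrin coats to actin, had 1 peak (chr12:122835323-122835723, plus strand, ENSG00000130787, TSS at 122835457). It read 96.5, 106 and 53.4 in HttQ23, against 35.0, 73.1 and 94.1 in HttQ89. HttQ23 replicate 3 lay below 2 of the HttQ89 libraries. The log2 fold change was −0.39 (SE 0.67, adjusted p = 0.841, limma) and came to 0.02 without HttQ89 replicate 1.

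SH3GL3 encodes endophilin A3, a membrane-curving protein that binds the proline-rich stretch beside the glutamine tract. Its promoter peak (chr15:83447230-83447630, plus strand, ENSG00000140600, TSS at 83447341) read 143, 66.9 and 107 in HttQ23, against 56.6, 78.1 and 101.4 in HttQ89. Both HttQ89 replicates 2 and 3 exceeded the lowest HttQ23 library. A distal peak that began 64127 bp upstream (chr15:83383101-83383501), in an intron of the long non-coding RNA ENSG00000259986, held between 0 and 10.3 in every library, with the highest value in HttQ89 replicate 1. It was the only one of the 15 peaks whose mean was higher in HttQ89.

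PACSIN1, or syndapin 1, is an F-BAR protein of neurons that acts in synaptic vesicle endocytosis and binds Htt more tightly when the tract is expanded. Its promoter peak (chr6:34465683-34466083, plus strand, ENSG00000124507, ending 22 bp past the TSS at 34466061) read 50.9, 78.6 and 46.4 in HttQ23, against 0, 35.6 and 68.8 in HttQ89. A second peak over exon 3 (chr6:34527059-34527459) read 54.1, 18.0 and 48.2 in HttQ23, against 2.06, 10.9 and 35.3 in HttQ89. The table files the peak under 5′ untranslated sequence, whereas in GENCODE the exon is coding in 4 transcripts, one of which starts its coding sequence there.

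The exon 3 peak of PACSIN1 had the largest fitted difference among the tested member peaks, with a log2 fold change of −1.76 (SE 0.85). Its unadjusted limma p was 0.0375 and its adjusted p 0.818, so it did not pass the test. HttQ89 replicate 3 stood above HttQ23 replicate 2, and the exact permutation p was 0.2. The 2.06 in HttQ89 replicate 1 stands for 2 reads, below the 3.09 units that a 0 allows there. On log2(value + 5) in place of log2(value + 1) the log2 fold change was −1.33. Without HttQ89 replicate 1 the log2 fold change was −0.84, and without HttQ89 replicate 3 it was −2.63 (adjusted p = 0.0723, limma). Summed over both peaks, PACSIN1 held 105, 96.6 and 94.6 in HttQ23, an SD of 5.52, and 2.06, 46.4 and 104 in HttQ89. The PACSIN1 sums in HttQ89 therefore ran from near 0 to the HttQ23 level.

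TRIP10, also called CIP4, is an F-BAR protein that carries signals from Cdc42 to actin. Its promoter peak was centred on the TSS (chr19:6739480-6739880, plus strand, ENSG00000125733, TSS at 6739680) and read 71.1, 61.6 and 56.0 in HttQ23, against 36.0, 42.5 and 74.2 in HttQ89. A weaker peak over exon 2 (chr19:6740641-6741041), where shorter TRIP10 transcripts start, read 5.30, 15.9 and 26.3 in HttQ23, against 6.18, 13.8 and 8.15 in HttQ89. At the promoter the lowest and the highest value were both in HttQ89, and at exon 2 both were in HttQ23. The log2 fold changes were −0.36 (SE 0.71, adjusted p = 0.859, limma) and −0.53 (SE 0.86, adjusted p = 0.836).

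The order of the 9 promoters, by the mean over all 6 libraries at the strongest peak within 2 kb of a TSS, was led by ZDHHC17 at 401 ± 187 (SD, n = 6). Next came 4 genes of similar level, with SH3GL3 at 92.2 ± 31.6, ZDHHC13 at 89 ± 32.7, HIP1 at 89 ± 54.7 and HIP1R at 76.4 ± 27.8. Below them stood OPTN at 61.0 ± 32.6, TRIP10 at 56.9 ± 15.3, PACSIN1 at 46.7 ± 27.7 and HAP1 at 35.3 ± 24.3. The median over all promoter peaks was 61.3. The members other than ZDHHC17 thus lay around the middle of all promoters, between the 33.1 percentile for HAP1 and the 66.0 percentile for SH3GL3.

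ZDHHC17 exceeded each of the other 8 promoters in 6 of 6 libraries, by ratios of means from 4.35 to 11.4. Its ratio to SH3GL3, the next in order, was 4.05, 3.76 and 4.93 in HttQ23, against 5.82, 1.81 and 5.71 in HttQ89. The mean difference was 2.01 on the log2 scale, and the exact two-sided sign-flip permutation p was 0.03125, the smallest that 6 libraries allow, or 0.25 after adjustment over the 8 pairs of neighbours. The remaining 7 pairs gave exact p values from 0.156 to 0.969, and no neighbours in the order passed after adjustment. A single pair could not have passed, since even the smallest p becomes 0.25 over 8 pairs. The order also shifted with the group and the scale. HIP1 (109) stood above SH3GL3 (106) in HttQ23, TRIP10 (50.9) stood above OPTN (43.4) in HttQ89, and the mean log2 difference of OPTN and TRIP10 was −0.65, opposite to their order by mean.

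**Figure D2:**
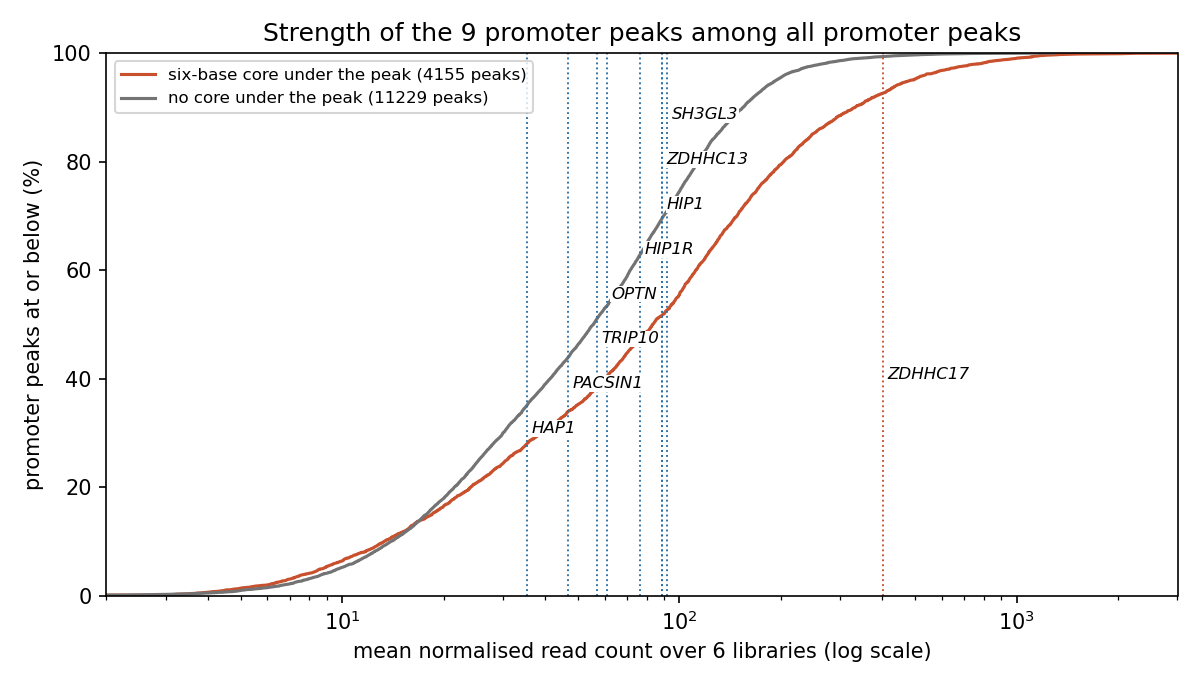
Mean normalised read count over 6 libraries (x axis, log scale) against the percentage of promoter peaks at or below that level (y axis), drawn for the 4155 promoter peaks with ATGGCG and the 11229 without. Dotted lines mark the strongest promoter peak of each of the 9 genes, red for ZDHHC17, which holds the core, and blue for the others, which do not. Peaks with the core are shifted to higher levels (median 83.5 against 55.6), and ZDHHC17 stands apart from the other 8 lines.

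Among 10999 tested promoter peaks of other genes with a mean of at least 20, those most like ZDHHC17 in their pattern over the 6 libraries were ATE1-AS1 (Pearson r = 0.9996), USP21 (0.9988) and ZFX (0.9986), on log2(value + 1). All libraries shift together at many peaks, and 702 candidates had an r over 0.95, with a median of 0.583 over all candidates. These correlations describe 6 libraries in which depth and signal were shared by all peaks.

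The comparison of HttQ89 with HttQ23 asked whether expanded Htt altered YY1 occupancy at the genes of its own partners. No change passed the test. Of the 15 peaks, 9 were above 0 in every library and were tested, and 0 of the 9 passed at an adjusted p of 0.05 in limma, with adjusted p from 0.818 to 0.859. Across all 14698 tested peaks 0 passed as well, a background of 0%. At an unadjusted limma p under 0.05 there was 1 of the 9 tested member peaks, PACSIN1 exon 3, beside 621 of all 14698 tested peaks. On recovered reads edgeR and DESeq2 called 0 peaks. At an unadjusted p under 0.05 edgeR gave 135 peaks with library sizes from sequencing depth and 194 with TMM factors. DESeq2, with its own size factors, gave 268, and 0 of all these were at members. Without HttQ89 replicate 3 limma called 514 peaks in all and 0 of the members.

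All 9 tested member peaks had a negative log2 fold change, with a median of −0.50, but the median over all tested peaks was also −0.50 and 82.8% of them were negative. After median centring, in which the median over tested peaks is set equal in all libraries, the overall median moved to 0.04 and 6 of the 9 members turned to small positive values between 0.01 and 0.17. Only PACSIN1 exon 3 and the 2 HIP1 peaks stayed negative after centring, at −1.23, −0.50 and −0.43. Centring adds the same amount to every peak, so every peak whose fitted decrease was smaller than that amount turns positive.

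**Figure D3:**
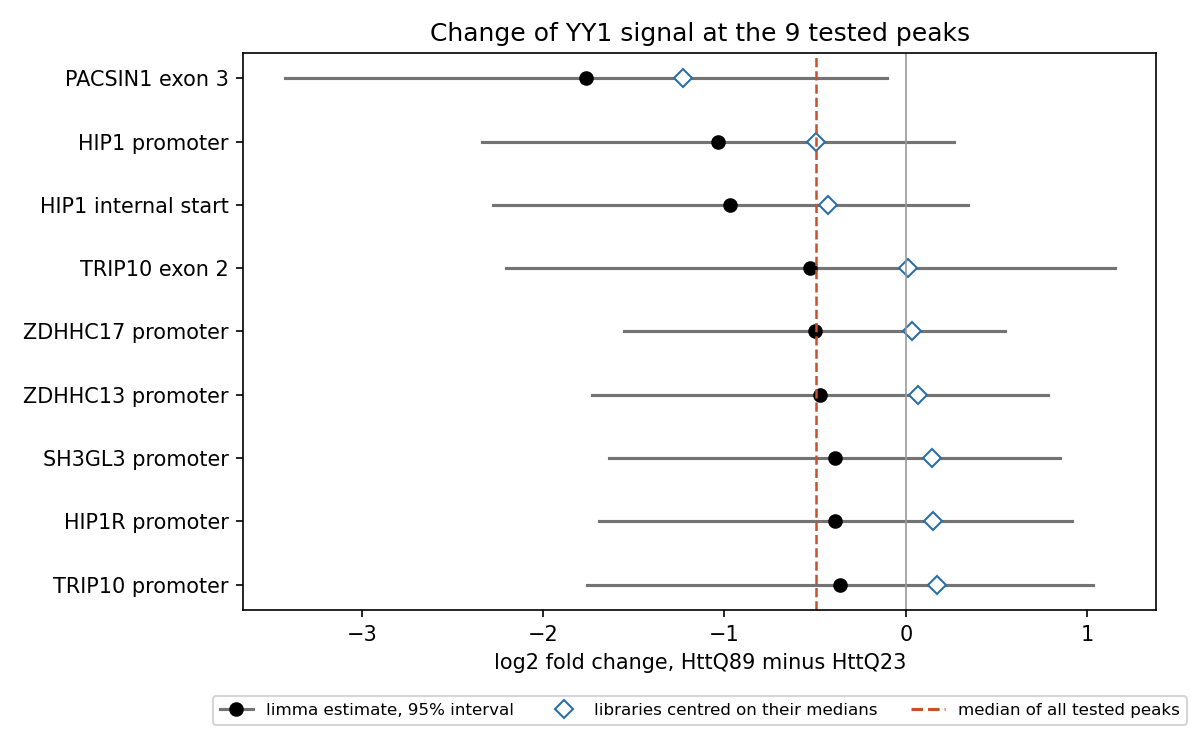
Log2 fold change (x axis, HttQ89 minus HttQ23) at the 9 tested member peaks, 1 row per peak, with the black point the limma estimate and the bar its 95% confidence interval. Open diamonds give the estimate after median centring, and the dashed line is the median of all tested peaks, −0.50. Every bar except that of PACSIN1 exon 3 crosses 0, and the diamonds of 6 peaks lie at or just above 0.

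The groups overlapped at all 15 member peaks. HttQ89 lay wholly below HttQ23 at 0 of 15, beside 4.35% of all peaks, and wholly above at 0 of 15, beside 0.769%. Relative to the HttQ23 mean, the tested member peaks had medians of 0.410, 0.615 and 1.10 in the HttQ89 replicates 1, 2 and 3, against 0.501, 0.573 and 1.16 for all tested peaks. HttQ89 replicate 1 was the lowest library at 7 of the 9 tested member peaks, and at 48.2% of all tested peaks. The exceptions were ZDHHC17, lowest in HttQ89 replicate 2, and TRIP10 exon 2, lowest in HttQ23 replicate 1.

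The promoters of HAP1, OPTN and PACSIN1 were at 0 in HttQ89 replicate 1 and above 16 in every other library. Of the 10 member promoter peaks, 3 were at 0 in HttQ89 replicate 1 and above 0 in the other 5 libraries. The same held at 12.4% of all promoter peaks (1905 of 15384). In the range of HttQ23 means that these 3 promoters span, 41.5 to 78.6, the share was 16.5% (504 of 3058). A zero kept these 3 promoters out of the tested set, and a fit of all peaks without the filter gave log2 fold changes of −2.29 for OPTN (SE 1.21), −2.09 for PACSIN1 (SE 1.23) and −1.65 for HAP1 (SE 1.30), each with an adjusted p of 0.871 (limma). With HttQ89 replicate 1 left out of the filter and the fit, a setting chosen after seeing the data, the same values were −0.29, −0.20 and 0.14. The fitted decrease at these promoters therefore rested on 1 library. That library had few reads in peaks (927910), and the part of this low number in these zeros was not tested.

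**Figure D4:**
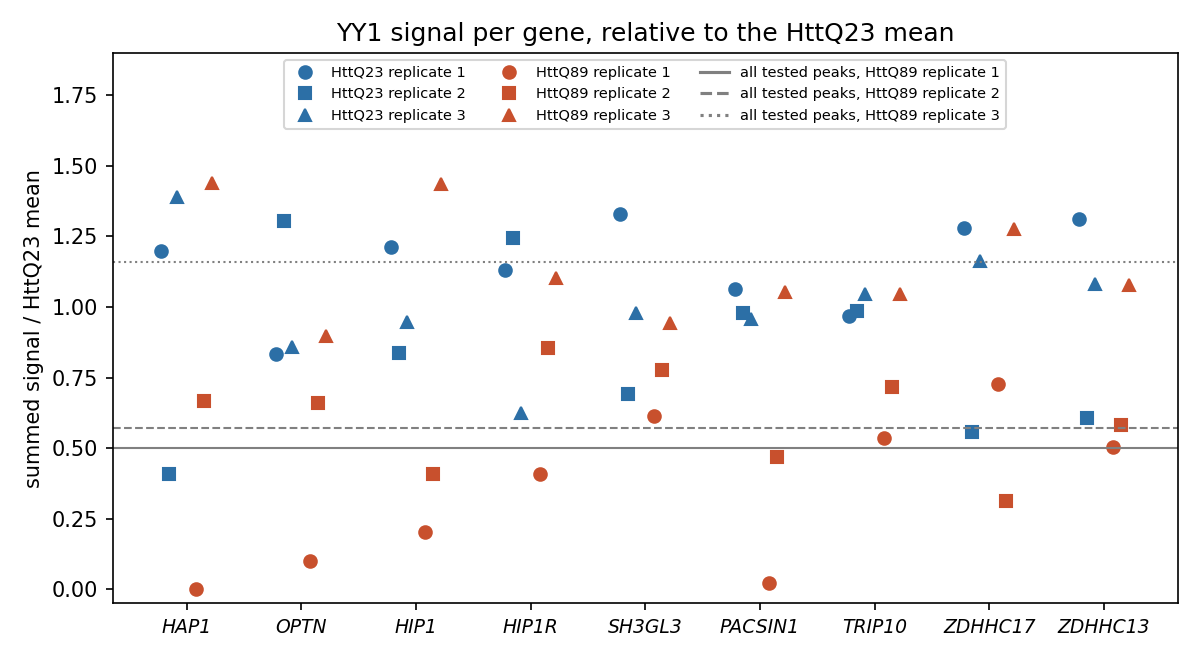
YY1 signal summed over all peaks of each gene, divided by the HttQ23 mean (y axis), for the 9 genes (x axis). Each point is 1 library, blue for HttQ23 and red for HttQ89, with the marker shape giving the replicate, and horizontal lines give the median ratio over all tested peaks in HttQ89 replicates 1, 2 and 3 (0.501, 0.573 and 1.16). HttQ89 replicate 1 lies near 0 for HAP1, OPTN and PACSIN1, and HttQ89 replicate 3 lies within or above the HttQ23 points for every gene.

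Summed over all peaks of a gene, the HttQ89 mean was lower for all 9 genes, by a ratio from 0.515 for PACSIN1 to 0.790 for HIP1R. OPTN stood at 0.553, HIP1 at 0.683, HAP1 at 0.701, ZDHHC13 at 0.721, TRIP10 at 0.766, ZDHHC17 at 0.772 and SH3GL3 at 0.779. The direction of HIP1R, SH3GL3, TRIP10, ZDHHC17 and ZDHHC13 turned when the libraries were centred. Exact permutation tests of 3 against 3 sums gave p from 0.2 to 0.7, and adjusted p over the 9 genes from 0.643 to 0.700. The smallest p possible is 0.1, so no gene could have passed at 0.05. For HIP1 the sums were 252, 174 and 197 in HttQ23, against 42.2, 85.0 and 299 in HttQ89, so its lowest and highest sums were both in HttQ89.

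Genes of the same pathways were taken from 3 lists, and none of them passed the test. Of 43 endocytosis and membrane-shaping genes, 34 had a tested promoter peak, and 0 passed the test in either direction, with 30 negative and 4 positive and a median log2 fold change of −0.54. Of 22 genes of the DHHC palmitoyltransferase family and its accessory protein GOLGA7, 16 were tested and 0 passed, with all 16 negative and a median of −0.68. Of 46 other partners of Htt and of the members, 32 were tested and 0 passed, with 31 negative and 1 positive and a median of −0.63. The median over all tested promoter peaks was −0.51. After median centring the 3 list medians were −0.0041, −0.14 and −0.097. Without HttQ89 replicate 3, 1 of 34 endocytosis genes (CLTCL1) and 0 of 16 palmitoyltransferase genes passed. So did 4 of 32 other partners (KLC2, PACS1, SP1 and TNIP1), beside 514 of all 14698 tested peaks. All were lower in HttQ89. The library left out of that fit read above the HttQ23 mean at each of these genes. It read 154 at CLTCL1 beside a HttQ23 mean of 125, and 348 beside 313 at KLC2. At PACS1 it read 144 beside 140, at SP1 244 beside 237 and at TNIP1 235 beside 217.

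The lowest p values among the endocytosis genes belonged to CLTCL1, a second clathrin heavy chain, at 125 ± 27.6 in HttQ23 and 67.5 ± 76.7 in HttQ89, and to BIN1, an amphiphysin, at 102 ± 3.78 and 65.5 ± 50.3 (SD, n = 3). PICALM, a clathrin assembly protein, had the strongest promoter of that list at 478 ± 57.7 and 377 ± 161. In each of these 3 the SD was larger in HttQ89 than in HttQ23. In the palmitoyltransferase family the lowest p values were those of ZDHHC20 (62.5 ± 19.0 and 33.0 ± 25.7) and ZDHHC22 (81.7 ± 14.1 and 48.5 ± 49), and ZDHHC5 had the strongest promoter (217 ± 39.0 and 156 ± 90.7). The mean of ZDHHC17 exceeded those of ZDHHC5 in both groups. Among the other partners DCTN1, the dynactin subunit that HAP1 binds, stood at 41.8 ± 2.14 and 20 ± 25.8 and PACS1, a sorting adaptor, at 140 ± 24.2 and 82.7 ± 68.8. KIF5B, a kinesin heavy chain, had the strongest promoter of that list at 853 ± 269 and 622 ± 319. None of these 9 genes passed the test (adjusted p of 0.818 or above, limma).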

How the data were processed

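YY1 binding in SK-N-MC cells expressing HttQ23 or HttQ89 was analysed in 6 libraries, 3 per group, mapped to groups by their labels. The 3 input libraries entered no fit. Following the study's methods and the processing notes of the submitters, paired reads of 150 nt were checked with FastQC 0.11.8, trimmed with Cutadapt 3.7 and aligned to GRCh38.p14 with Bowtie2 2.4.1, and peaks were called with MACS3 3.0.1 and annotated with ChIPseeker 1.38.0. The deposited values are a signal that the authors made with DiffBind, reads per peak scaled to depth. Subtraction of input reads, and calling of peaks in single or in merged libraries, are not given in the sources used here. Depth scaling keeps differences in yield between libraries.

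All deposited values (100%) were whole multiples of 1 step per library within a tolerance of 0.1 reads, which gave recovered reads of 1943927, 1415890 and 2089917 in HttQ23 and 927910, 1012558 and 2344649 in HttQ89. Fits used log2(value + 1) and limma 3.58.1 (R 4.3.3, two-sided, eBayes with a trend). They covered the 14698 peaks above 0 in every library, as the study filtered, with Benjamini-Hochberg adjustment over all of them. The added 1 shrinks change between low values, yet a single library at or near 0 weighs heavily on this scale. At the OPTN promoter, with HttQ89 replicate 1 at 0, the fit without the filter gave −2.29, beside a ratio of HttQ89 to HttQ23 means of 0.552. The prior degrees of freedom of limma were infinite, and its SE therefore follows peak strength. Alternatives were other filters, pseudocounts and scalings, edgeR 4.0.16 and DESeq2 1.42.0 on recovered reads, a replicate block and leaving out each library. The p values reflect only how these libraries spread. Peaks were placed on GENCODE v44, with sequence from hg38 and the internal HIP1 start from RefSeq (GRCh38).

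Named were all 9 genes with every peak, of each list the 2 genes with the lowest limma p and the 1 with the strongest promoter, and the 3 promoters most like that of ZDHHC17. The members and lists were chosen with earlier results of these data known. The fit was tested on simulated data.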

Additional observations from a re-analysis of the deposited data

How the results depend on the processing

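The number of member peaks passing the test was 0 under every alternative run. Over all peaks limma called 0, except 1 with the replicate block (NELFA) and 514 without HttQ89 replicate 3, so the range on leaving out a library was 0 to 514. Without that library 1 endocytosis gene (CLTCL1) and 4 other partners (KLC2, PACS1, SP1 and TNIP1) also passed, for ranges of 0 to 1 and 0 to 4. The median log2 fold change of member peaks ran from −0.97 (mean of at least 20, 11 member peaks) to 0.03 (median centring). The medians over all peaks of those 2 fits were −0.60 and 0.04. On leaving out a library the member median ran from −0.80 to −0.21, beside −0.85 and −0.22 over all peaks of the same fits. Some signs reversed. Median centring gave HIP1R 0.15, SH3GL3 0.14, TRIP10 0.17 at the promoter and 0.011 at exon 2, ZDHHC17 0.035 and ZDHHC13 0.066. Quantile normalisation gave HIP1R 0.19, SH3GL3 0.12, TRIP10 0.16 and ZDHHC13 0.053. TMM factors gave HIP1R 0.10, SH3GL3 0.10, TRIP10 0.12 and ZDHHC13 0.018. On recovered reads edgeR with TMM gave HIP1R 0.081, SH3GL3 0.085, TRIP10 0.12 and ZDHHC17 0.048, and DESeq2 gave 0.088, 0.094, 0.13 and 0.063. On leaving out a library HIP1R ran from −0.69 to 0.019 (without HttQ89 replicate 1, also where the filter used the other 5 libraries, with HAP1 then at 0.14), and the ZDHHC17 promoter from −0.97 to 0.038 (without HttQ89 replicate 2). For log2 ratios of gene sums, centring gave HIP1R 0.098, SH3GL3 0.24, TRIP10 0.11, ZDHHC17 0.13 and ZDHHC13 0.030, and TMM gave HIP1R 0.078, SH3GL3 0.18, TRIP10 0.058 and ZDHHC17 0.050. On leaving out a library the HAP1 sum ran from −1.59 to 0.073 (without HttQ89 replicate 1) and the ZDHHC17 sum from −0.94 to 0.0038 (without HttQ89 replicate 2). None of these reversed values passed a test, and their causes were not tested. For gene sums the exact permutation test gives no p below 0.1, so it could not pass at 0.05. In a window at the centre of each peak ATGGCG was found in 20.8% of all peaks and 1 of 15 member peaks, and ATGGC in 35.5% and 2 of 15.

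Same-numbered libraries deviated together with correlations of 0.041, 0.386 and 0.146 for replicates 1, 2 and 3. Each HttQ23 library, and HttQ89 replicates 2 and 3, correlated best with the library of the same number. HttQ89 replicate 1 correlated best with HttQ23 replicate 3 (0.129). The labels do not state a pairing, so the main fit was unpaired and a replicate block was run as an alternative. With the replicate block 1 peak of 14698 was called and 0 member peaks. The number of reads in these libraries limits the weakest peaks, since values at or near 0 rest on few reads. No fold is given for the intronic peaks of OPTN and ZDHHC13 or for the distal SH3GL3 peak. The folds given for the HAP1, OPTN and PACSIN1 promoters, PACSIN1 exon 3 and TRIP10 exon 2 include such low values.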
